A study of Mus musculus with 6 samples.

Results

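The entries described here belong to 6 mouse hairpins that are listed as microRNAs (miRNAs) but had been grouped by name as overlapping other RNA genes: mmu-miR-6236, mmu-miR-6240, mmu-miR-3968, mmu-miR-1983, mmu-miR-1839 and mmu-miR-5121 (written below without the prefix). All arms and sequence variants with these mouse names were taken, which gave 10 entries of the 1080 listed, 754 of them with mouse names. The hairpins had been picked from earlier results of the same libraries, in which several stood lower in the libraries with the circCpsf6 siRNA, so every difference between the groups is given below as a description with no test. The 6 small RNA libraries were made from the mouse neuroblastoma line N2A (Neuro2A). The si-NC group (3 libraries) received a control siRNA and the si-circCpsf6 group (3 libraries) an siRNA against the circular RNA circCpsf6, each at 100 nM. No genotype, clone or time after transfection was given for either group, and circCpsf6 was not measured in the values analysed here. Replicate numbers are those of the library titles. Values are the authors' normalized read numbers, so how many reads lie behind them is unknown, and no counting interval is given. Means are followed by the SD over 3 libraries, and nothing in the labels says that these came from separate cultures.

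A canonical miRNA is cut from a hairpin by Drosha and then Dicer, and it finds its targets mainly through its seed, bases 2 to 8. Other small fragments of similar length are cut from longer RNAs that have their own functions. C/D box small nucleolar RNAs (snoRNAs) guide methylation of ribosomal RNA (rRNA), H/ACA box RNAs guide pseudouridylation, and the small Cajal body RNAs (scaRNAs) do this for spliceosomal RNAs. Transfer RNA (tRNA) precursors lose a short 3′ trailer when they mature, and mature tRNAs receive the letters CCA at their 3′ end.

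The mature sequences are shown first, because they show which letters would be read as the seed. They were taken from RefSeq (GRCm38.p6), where all 6 mature sequences were present, and the capitals mark bases 2 to 8.
miR-6236: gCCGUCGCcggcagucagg
miR-6240: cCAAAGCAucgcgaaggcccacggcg
miR-3968: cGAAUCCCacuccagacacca
miR-1983: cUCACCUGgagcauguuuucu
miR-1839-5p: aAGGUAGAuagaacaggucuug
miR-5121: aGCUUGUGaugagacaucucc
No pair among the 6 shared a seed. Over all 1679 mouse mature sequences in that table, the seed of miR-6240 was shared with miR-330-3p and that of miR-1983 with miR-412-3p. The seeds of the other 4 were shared with no other mouse miRNA there. The GC content was 78.9% in miR-6236 and 69.2% in miR-6240, against a median of 52.2% over the table and 40.9% in miR-1839-5p. Of the entries described below, only miR-1983 and miR-1839-5p carry the name of one of these 6 sequences unchanged. The other entries need not have these seeds or GC contents.

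The hairpins with an overlapping small RNA gene are shown next, with the mature miRNA in capitals. They show where in the other RNA the fragment lies.
Mir5121: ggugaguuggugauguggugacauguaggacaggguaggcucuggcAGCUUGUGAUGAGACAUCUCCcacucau
Mir1983: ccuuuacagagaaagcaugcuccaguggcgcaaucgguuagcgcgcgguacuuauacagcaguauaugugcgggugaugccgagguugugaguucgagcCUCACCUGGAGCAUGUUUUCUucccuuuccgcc
Mir1839: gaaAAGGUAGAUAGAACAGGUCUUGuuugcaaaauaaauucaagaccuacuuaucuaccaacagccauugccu

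The label of rRNA, tRNA, snoRNA and Rpl13a was checked against GENCODE M21 and RefSeq gene positions on GRCm38. An overlapping small RNA gene was found for 3 of the 6 hairpins, miR-5121, miR-1983 and miR-1839. The Mir5121 hairpin (chromosome 7, 45126918 to 45126991, minus strand) lies within Rpl13a, which encodes a protein of the large ribosomal subunit, and within the overlapping gene Gm45713. Only 1 of its 74 bases lies in exons of the protein-coding Rpl13a transcripts, and the hairpin is wholly exonic only in retained-intron transcripts of the gene. The mature miR-5121 (45126925 to 45126945) lies whole inside Snord33, a C/D box snoRNA gene in an intron of Rpl13a. It covers bases 3 to 23 of the 84-base GENCODE Snord33 and bases 1 to 21 of the 82-base RefSeq Snord33. Its bases 7 to 12 read UGAUGA, the letters of a C box, which 12 of 1679 mouse mature miRNAs contain (0.715%).

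The Mir1983 hairpin (chromosome 13, 21896918 to 21897049, minus strand) holds all 94 bases of the isoleucine tRNA gene n-TItat14 (21896938 to 21897031). The strand of that gene is not in the table used, but the hairpin contains GUUCGA, letters of the tRNA T arm, as do 7 of 1005 mouse hairpins in the RefSeq table (0.697%). Read along the hairpin strand, mature miR-1983 covers the last 13 bases of the tRNA gene and 8 bases past its 3′ end. These include a run of UUUU, as in 88 of 1679 mouse mature miRNAs (5.24%). A run of U is also where RNA polymerase III ends tRNA transcripts.

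The Mir1839 hairpin (chromosome 7, 81529916 to 81529988, plus strand) lies in a long noncoding RNA, 2900076A07Rik, and 66 of its 73 bases are shared with a scaRNA gene of 127 bases (81529855 to 81529981). GENCODE names that scaRNA gene Mir1839 too, so it is a second annotation of the same locus rather than a gene known by another name. Mature miR-1839-5p covers bases 65 to 86 of that scaRNA. The scaRNA ends in ACAGCC, so that ACA stands 3 bases before its 3′ end, the place of the ACA box in H/ACA RNAs.

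**Figure D1:**
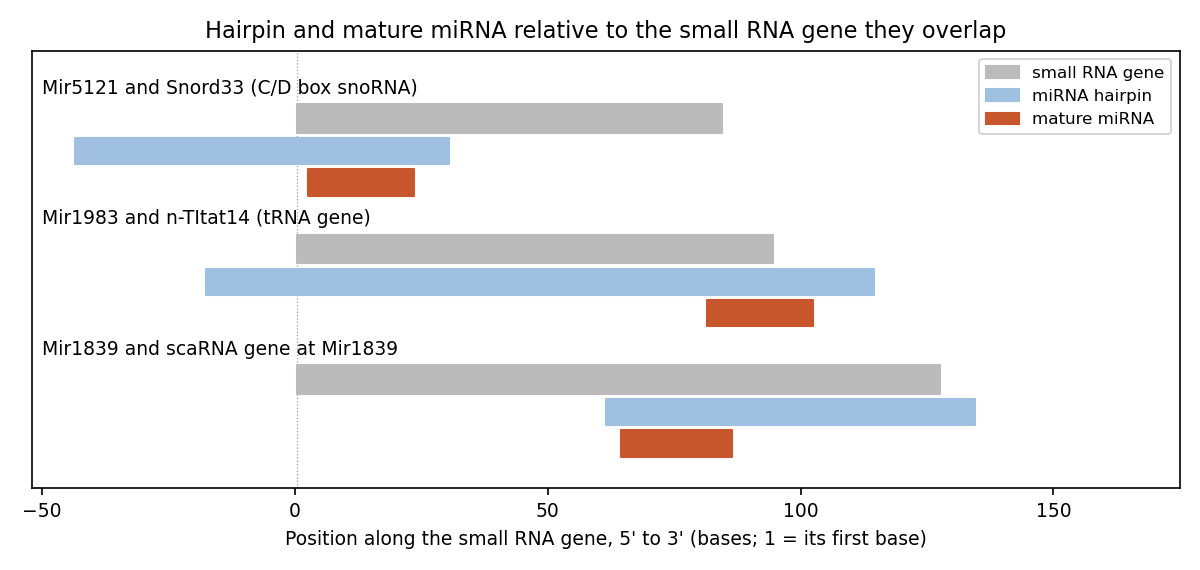
Position of 3 miRNA hairpins (light blue) and their mature miRNAs (orange) along the small RNA gene they overlap (grey), in bases from the first base of that gene; the tRNA gene is drawn along the hairpin strand. Mature miR-5121 sits at the 5′ end of Snord33 (bases 3 to 23 of 84), miR-1983 runs 8 bases past the 3′ end of the tRNA gene, and miR-1839-5p lies inside the scaRNA (bases 65 to 86 of 127).

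For the other 3 hairpins no rRNA, tRNA, snoRNA or scaRNA gene overlapped. Mir6240 (chromosome 5, 114851948 to 114852064, plus strand) overlaps no other gene in either annotation. Mir6236 (chromosome 9, 110281287 to 110281409, plus strand) lies within the RefSeq long noncoding RNA gene Gm39429. Mir3968 (chromosome 11, 115447961 to 115448060, minus strand) lies opposite exon 8 of Trim80. An rRNA origin of miR-6236 and miR-6240 was not tested, because 62 of the 65 RefSeq rRNA genes in the reference span at most 200 bases and its 28S gene, Rn28s1, spans 420 bases. These 3 hairpins are therefore called by their names below.

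Of the 10 entries, 4 carried a name with no substitution and no end shift (miR-1983, miR-1839-5p, miR-1839-3p and mir-6236-p5), and the others were listed as variants. The name mir-6236-p5 gives the 5′ arm of the hairpin. The mature miR-6236 (110281353 to 110281371) lies nearer the 3′ end of the hairpin (110281287 to 110281409, plus strand). By its name, the p5 entry is thus from the arm opposite the mature miR-6236, and its reads were not compared with that sequence. The suffixes were read as end shifts and single substitutions, with positions counted from 1 at the 5′ end of the mature miRNA. The base named in the suffix stood at that position of the RefSeq sequence for 24 of 26 mouse entries with a substitution, and for 22 of 26 when positions were counted on the shifted read. The ways of counting differ only for the 6 entries with a shifted 5′ end, where 4 matched on the mature miRNA and 2 on the shifted read, so the general rule rests on few entries. In the miR-3968 entry itself, the A named in the suffix stands at base 14 of the mature miRNA. Base 14 of the shifted read is a C. The variant sequences built from the names are given for miR-3968 and miR-5121, because no unshifted form of either was listed. Capitals mark the substituted base and the last 3 bases in miR-3968 and the UGAUGA letters in miR-5121.
miR-3968_L-3_1ss14AT: aucccacuccUgacaCCA
miR-5121_L-1: gcuugUGAUGAgacaucucc
The miR-3968 entry lacks 3 bases at its 5′ end, carries the substitution A14T and ends in CCA, as do 23 of 1679 mouse mature miRNAs (1.37%). A match to the end of a tRNA was not tested. With its first 3 bases gone, its seed letters are not those of the mature miR-3968, and the miR-5121 entry, which lacks 1 base there, likewise does not keep the seed letters of miR-5121. The read sequences of the mir-6240, mir-6236 and mir-1983 entries named p5 or p3 were not analysed here.

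As a check of the cell type, the summed value of neuronal and neuroendocrine miRNAs (8 of 8 markers listed) ran from 182559 to 498972 per library. The neuroendocrine miR-7a and miR-7b made up 74.4% to 94.9% of that sum. Of the rest, miR-218 was at 12752 to 35802, miR-138 at 3350 to 9427 and miR-132 at 2910 to 5068. Lower were miR-124 at 190 to 725, miR-375 at 96 to 313 and miR-9 at 90 to 192. miR-122 of liver was listed at 0 to 5 and the blood markers (2 of 4 listed) summed to 0 to 17. Striated muscle markers (2 of 4) summed to 43 to 132. Endothelial and mesenchymal markers (5 of 5 listed) summed to 73959 to 113084 in si-NC and 90607 to 116164 in si-circCpsf6, most of it miR-143 (57850 to 90431 over the libraries). The mesenchymal miR-214 was at 685, 835 and 228 in the controls, against 1233, 1570 and 1349 with si-circCpsf6, so its groups did not overlap. The same held for the neuronal miR-132, at 2967, 3338 and 2910 in the controls, against 4374, 5068 and 3775 with si-circCpsf6. Of all tested entries, 6.77% had groups apart in that direction, a share of single entries, while both markers are sums over 2 entries. The neuronal and neuroendocrine sums ran from 182559 to 359272 in si-NC and from 302064 to 498972 in si-circCpsf6. Without miR-7a and miR-7b they were 25637, 22331 and 46721 in the controls, against 34063, 25481 and 37683 with si-circCpsf6, and overlapped. The part of these markers in the results was not tested. Library totals ran from 2570449 to 3268351. The third si-NC library stood apart: it had 578 entries at 1 or more, against 747 to 880 of the 1080 in the others. Changes between the groups are therefore also given without it.

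Together the 10 entries were a small fraction of each library. They summed to 12933, 15798 and 9474 normalized reads in si-NC replicates 1, 2 and 3, or 0.432%, 0.549% and 0.376% of all values after repeated rows were merged. The si-circCpsf6 sums were 7286, 9304 and 10780, or 0.258%, 0.289% and 0.381%. Their mean sums were 12735 ± 3167 (si-NC) and 9123 ± 1754 (si-circCpsf6), the latter 71.6% of the former, or 63.5% without si-NC replicate 3. The highest si-circCpsf6 library lay above the lowest si-NC library, so the sums overlapped.

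By mean over the 6 libraries, the most abundant entry, the miR-3968 variant, ranked 118 among the mouse-named entries and the least abundant, a mir-6236-p3 variant, ranked 612. Within si-NC the levels ran from miR-1983 (3146 ± 975) through miR-1839-5p (2890 ± 1013), the miR-3968 variant (2255 ± 359), the mir-6240-p3 variant (1902 ± 1469) and the miR-5121 variant (1389 ± 894) to the mir-6240-p5 variant (788 ± 571). Each of these overlapped its neighbour in that order. A gap followed, and then came miR-1839-3p (162 ± 31.5), mir-6236-p5 (154 ± 21.8) and the mir-1983-p5 variant (46.3 ± 35.9), of which the first pair overlapped. In si-circCpsf6 the order began with the miR-3968 variant, and the miR-5121 and mir-6240-p5 variants stood side by side at 310 ± 109 and 228 ± 26.1.

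**Figure D2:**
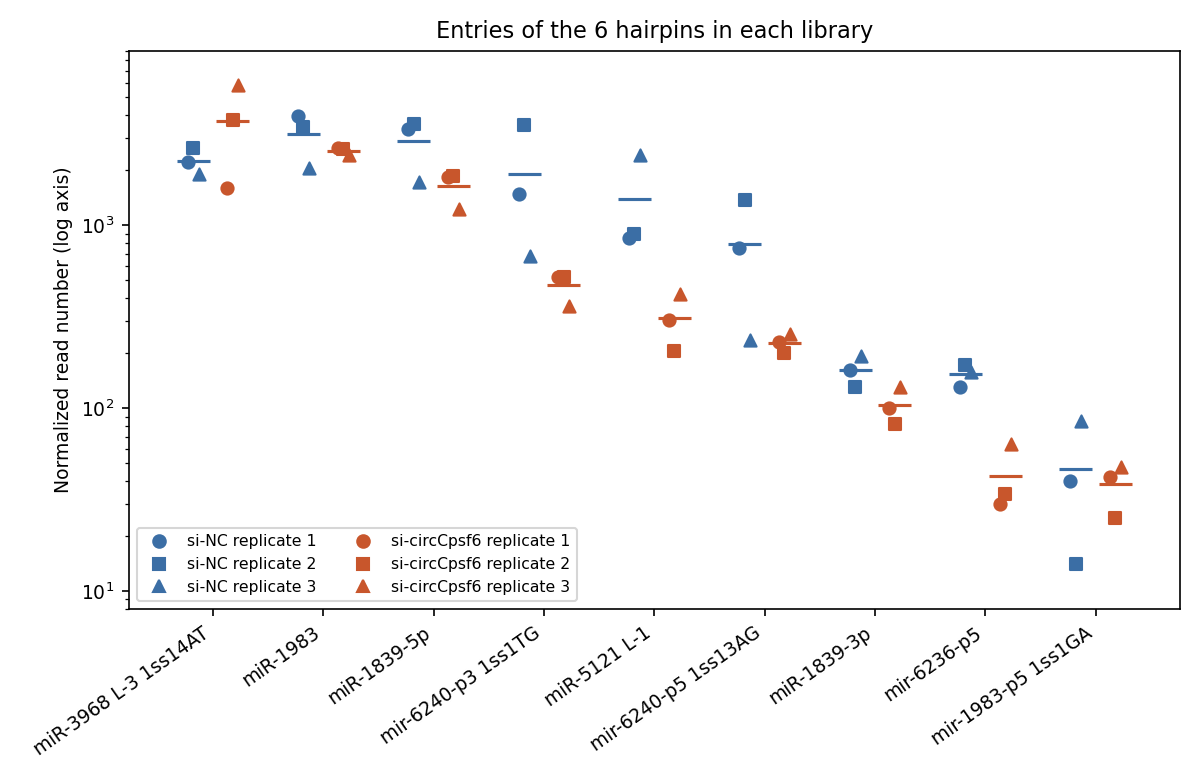
Normalized read number (log axis) of the 9 entries with a mean of 10 or more, 1 point per library and a line at each group mean, si-NC in blue and si-circCpsf6 in orange. The miR-5121 variant, mir-6236-p5 and the mir-6240-p3 variant have no overlap between the groups, and the third si-NC library (triangle) is highest for miR-5121 but lowest of si-NC for mir-6240.

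The snoRNA-overlapping miR-5121 variant, whose letters come from the 5′ part of Snord33, was lower in every si-circCpsf6 library. It was listed at 848, 898 and 2420 in the controls, against 302, 205 and 423 with si-circCpsf6. The si-NC replicates 1 and 2 were close to each other, si-NC replicate 3 was the highest of all libraries, and the groups did not overlap. The mean in si-circCpsf6 was 22.3% of that in si-NC, and 35.5% without si-NC replicate 3. On the log2(value + 1) scale the change was -2.04 (SE 0.48), and -1.55 without that library. No other snoRNA of the Rpl13a introns was analysed here.

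The miR-6240 entries, named for both arms of a hairpin with no overlapping gene, were lower in si-circCpsf6 on average but varied widely among the controls. The p3 variant was listed at 1489, 3533 and 683 in the controls, against 524, 521 and 362 with si-circCpsf6. The si-NC libraries spanned 5.17-fold and the si-circCpsf6 libraries 1.45-fold, and the groups did not overlap. The p5 variant was listed at 754, 1376 and 235 in the controls, against 230, 201 and 253 with si-circCpsf6. Here si-NC replicate 3 lay inside the si-circCpsf6 range, so the groups overlapped. In both entries si-NC replicate 2 was highest and si-NC replicate 3 lowest among the controls.

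On the log2 scale the change was -1.73 (SE 0.55) for the p3 variant and -1.46 (SE 0.60) for the p5 variant. Without si-NC replicate 2 these were -1.12 and -0.89, and without si-NC replicate 3 they were -2.31 and -2.16. The ratio of p3 to p5 was 1.97, 2.57 and 2.91 in the controls, against 2.28, 2.59 and 1.43 with si-circCpsf6. These ratios overlapped between the groups, although the level of each entry spanned more than 5-fold within si-NC.

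mir-6236-p5 had the smallest spread of the 10 entries within si-NC (coefficient of variation 14.2%), and the entry named for the opposite arm was near 0. mir-6236-p5 was listed at 130, 173 and 158 in the controls, against 30, 34 and 64 with si-circCpsf6. The lowest si-NC library was above the highest si-circCpsf6 library. The mean was 153.7 ± 21.8 against 42.7 ± 18.6, or 27.8% of si-NC, and 28.2% without si-NC replicate 3. Its log2 change was -1.89 (SE 0.51) and lay between -2.22 and -1.69 when any single library was dropped (-1.87 without si-NC replicate 3). The mir-6236-p3 variant was listed at 7, 4 and 0 in the controls, against 0, 4 and 0 with si-circCpsf6, too low for a fold. Its 6 values were identical to those of an entry named after a platypus let-7b.

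The scaRNA-overlapping miR-1839 entries were lower in mean in si-circCpsf6 by a smaller amount, and their arms did not follow each other among the controls. miR-1839-5p was listed at 3344, 3596 and 1729 in the controls, against 1834, 1857 and 1235 with si-circCpsf6. Of the controls, the third alone fell among the si-circCpsf6 values. miR-1839-3p was listed at 162, 130 and 193 in the controls, against 100, 82 and 130 with si-circCpsf6, where the lowest control equalled the highest si-circCpsf6 library. The log2 changes were -0.77 (SE 0.35) for 5p and -0.64 (SE 0.43) for 3p, or -1.10 and -0.50 without si-NC replicate 3. The ratio of 5p to 3p was 20.6, 27.7 and 8.96 in the controls, against 18.3, 22.6 and 9.50 with si-circCpsf6, so in each group the library numbered 3 had the lowest ratio.

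Read along the hairpin strand, the mature sequence of miR-1983 runs 8 bases past the 3′ end of n-TItat14. This tRNA-overlapping entry had a mean in si-circCpsf6 of 81.2% of that in si-NC. It was listed at 3937, 3444 and 2057 in the controls, against 2631, 2620 and 2410 with si-circCpsf6. The si-circCpsf6 libraries lay close together (1.09-fold from lowest to highest), between si-NC replicate 3 and the other controls. The log2 change was -0.25 (SE 0.30), and -0.53 without si-NC replicate 3. The mir-1983-p5 variant, named for the opposite arm, was listed at 40, 14 and 85 in the controls, against 42, 25 and 48 with si-circCpsf6. Its log2 change of 0.017 (SE 0.79) changed sign in 6 of 16 alternatives and ran from -0.64 without si-NC replicate 2 to 0.61 without si-NC replicate 3. Its mean in si-circCpsf6 was 82.7% of that in si-NC, and 142% without si-NC replicate 3.

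The miR-3968 variant that ends in CCA had a higher mean in si-circCpsf6. It was listed at 2222, 2630 and 1914 in the controls, against 1593, 3755 and 5855 with si-circCpsf6. The si-circCpsf6 libraries held both the lowest and the highest value, a span of 3.68-fold, against 1.37-fold in si-NC. The log2 change was 0.55 (SE 0.45). It was 0.44 without si-NC replicate 3, 0.13 when the third si-circCpsf6 library was dropped and 1.07 when the first was.

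**Figure D3:**
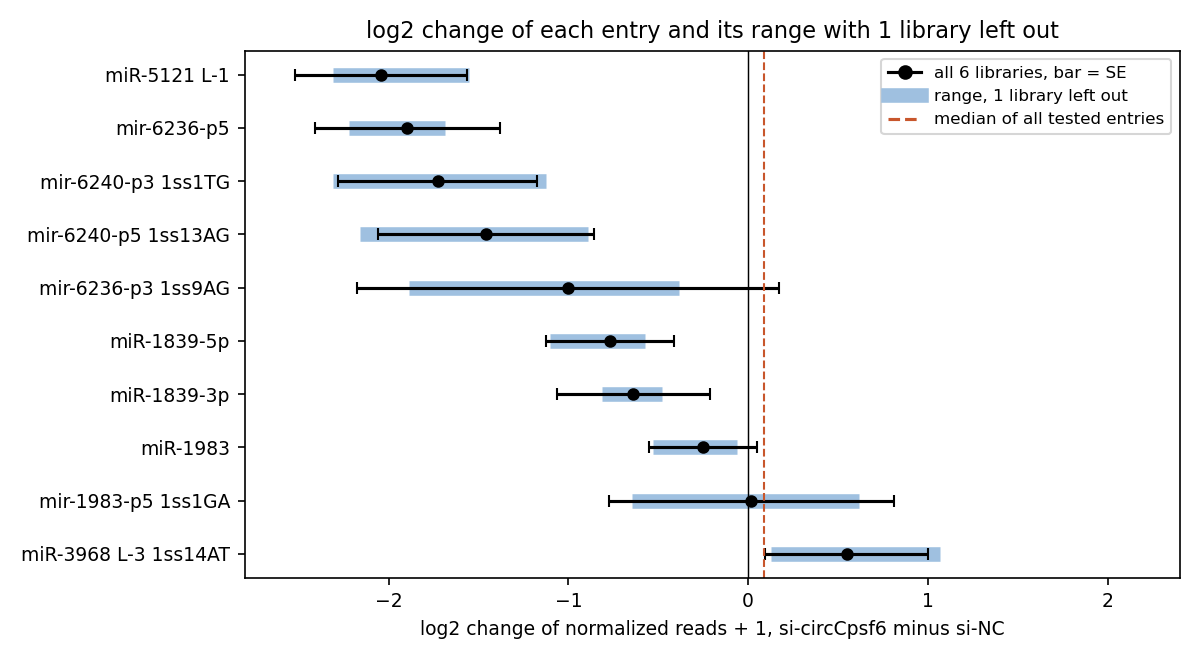
log2 change of log2(value + 1) in si-circCpsf6 minus si-NC for the 10 entries (points, bars are SE), with the range when 1 library is left out (light blue) and the median of all 916 tested entries (dashed). Changes run from -2.04 for the miR-5121 variant to 0.55 for the miR-3968 variant, and the mir-1983-p5 variant spans 0 when 1 library is left out.

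All 10 entries passed the filter of a mean of 1 or more, and 8 of them had a lower log2 mean in si-circCpsf6, against 43.7% of the 916 tested entries. Their median log2 change was -0.88, against 0.086 over all tested entries, and without si-NC replicate 3 these medians were -1.33 and -0.051. The groups did not overlap in the lower direction for 3 of the 10, against 4.91% of tested entries (11.7% in either direction and 6.77% in the higher direction). Without si-NC replicate 3 that count was 6 of 10, against 19% of tested entries, with miR-1839-5p, miR-1983 and the mir-6240-p5 variant added. By limma with Benjamini-Hochberg adjustment, 0.0% of tested entries had an adjusted p under 0.05, and 57 had an unadjusted p under 0.05. Since the hairpins were picked from this contrast, nothing is read from these counts.

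The other mouse hairpins of the annotation were searched by position for the same kinds of overlap. Entries of these lists are named here without their suffixes, though many were listed as variants. By its suffix, the miR-677-3p entry lacks 5 bases at its 5′ end. In rRNA, tRNA, snoRNA or scaRNA genes lay 18 further tested entries, all of them in snoRNA or scaRNA genes. The snoRNA genes of the miR-3068, miR-677 and miR-1949 entries are named Mir3068, Mir677 and Mir1949. As at Mir1839, these are second annotations of the same loci. Of the 18 entries, the log2 mean in si-circCpsf6 was lower for 10 and higher for 8. Their median log2 change was -0.11, and 0 passed the limma test. Without si-NC replicate 3 these were 12 and 6, with a median of -0.44, against -0.051 over all tested entries. The groups then did not overlap in the lower direction for 7 of the 18, against 19% of tested entries. With all libraries the groups were apart for 1 of the 18, the low miR-677-3p, against 6.77% of tested entries in the higher direction. miR-677-3p was listed at 4, 5 and 0 in the controls, against 24, 11 and 27 with si-circCpsf6. The most abundant, miR-3068-5p, had means of 1505 ± 191 (si-NC) and 1860 ± 224 (si-circCpsf6). miR-3068-3p stood at 564 ± 199 and 499 ± 80.0. In scaRNA genes miR-1843a-5p was at 325 ± 134 and 281 ± 23.4 and miR-1843b-5p at 214 ± 87.5 and 226 ± 25.1. miR-664-3p, within the H/ACA snoRNA Snora36b, was at 115 ± 21.4 and 132.3 ± 32.1.

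Exons of protein-coding genes, counted over any transcript of the gene, held 67 further tested entries. The log2 mean in si-circCpsf6 was lower for 25, higher for 41 and equal for 1. Their median log2 change was 0.078, and 0 passed the limma test. The balance turned without si-NC replicate 3, with 41 lower, 26 higher and a median of -0.18. The median over all tested entries turned as well, from 0.086 to -0.051. The 5 most abundant were miR-27b-3p, miR-21a-5p, miR-25-3p, miR-26a-5p and miR-24-3p, and in none of them were the groups apart. For miR-27b-3p, for example, the means were 255446 ± 96566 (si-NC) and 258378 ± 15250 (si-circCpsf6). The groups were apart for 3 of the 67, miR-700-5p, miR-702-3p and miR-1982-3p, all higher in si-circCpsf6, against 6.77% of tested entries in that direction. miR-702-3p was at 58, 42 and 0 in the controls, against 81, 104 and 59, and miR-1982-3p at 3, 0 and 0, against 9, 13 and 6. Without si-NC replicate 3 the groups were apart in the lower direction for 10, against 19% of tested entries. They were apart in the higher direction for 4 of the 67. Over all 912 entries then fitted, the groups were apart in either direction for 290. A list by name of entries often taken for such fragments, with miR-664 and miR-1291 in common with the list by position, had 8 tested entries, 5 with a lower and 3 with a higher log2 mean (median -0.43), and again 0 passed. Without si-NC replicate 3 the median was -1.32, with 6 lower and 2 higher. Among them miR-1291, within Snora34, was listed at 69, 130 and 23 in the controls, against 24, 25 and 23 with si-circCpsf6. The most abundant of that list, miR-5099, was listed at 29536, 23792 and 5901 in the controls, against 13362, 17910 and 8211 with si-circCpsf6. In both, si-NC replicate 3 was far below the other controls. For miR-664-3p of the same list it was the highest control, with 91, 124 and 131 in the controls against 135, 99 and 163.

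**Figure D4:**
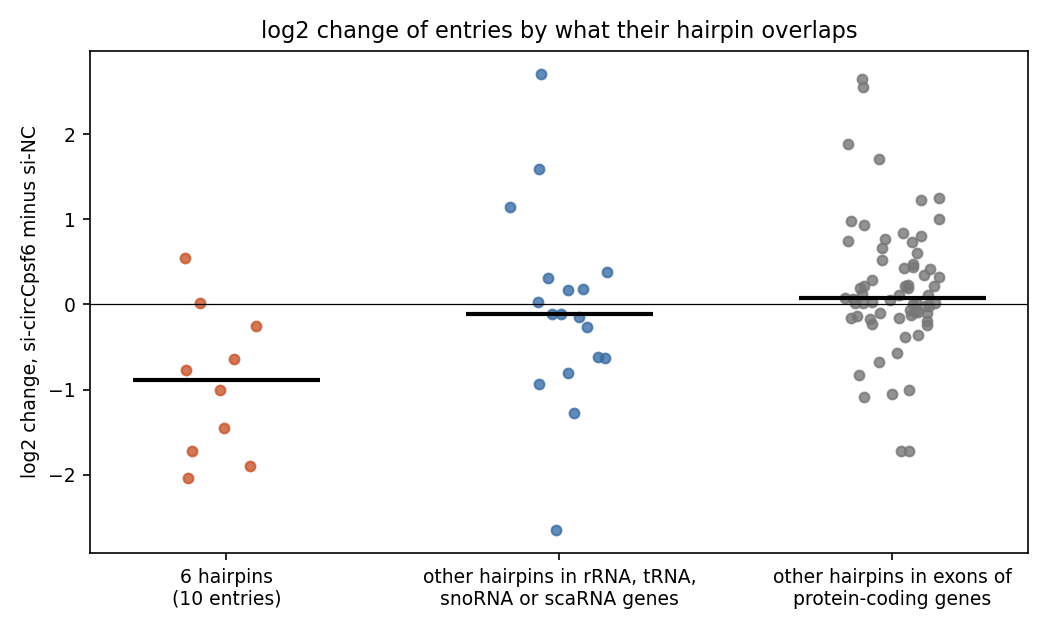
log2 change in si-circCpsf6 minus si-NC of the 10 entries (orange), of 18 entries of other hairpins in rRNA, tRNA, snoRNA or scaRNA genes (blue) and of 67 in exons of protein-coding genes (grey), 1 point per entry with a line at the median. The medians are -0.88, -0.11 and 0.078 (-1.33, -0.44 and -0.18 without si-NC replicate 3), and the first group was picked from this contrast.

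The entries most alike in pattern were sought by Pearson r of log2(value + 1) over the 6 libraries among 512 mouse-named entries with a mean of 10 or more. These r values also rise where entries share a difference between the groups, and they are a description only. Without si-NC replicate 3 the r of the 27 named pairs ran from 0.706 to 0.996. mir-6236-p5 was most like let-7a-5p (r = 0.976), miR-98-5p (0.948) and miR-344h-3p (0.940). The miR-5121 variant was most like a miR-344f-5p variant (0.969), miR-98-5p (0.948) and let-7b-5p (0.944). The mir-6240-p5 variant was most like miR-1291 (0.991), miR-184-3p (0.979) and let-7e-5p (0.965), and the p3 variant was most like miR-344d-3p (0.981), a miR-6540-5p variant (0.970) and miR-1291 (0.970).

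miR-1839-5p was most like miR-344b-3p (0.994), a miR-669c-5p variant (0.978) and a miR-325-5p variant (0.951), while miR-1839-3p was most like mir-466g-p5 (0.975), miR-6540-3p (0.973) and miR-488-3p (0.973). miR-1983 was most like variants of miR-146b-5p (0.979) and miR-615-3p (0.957) and miR-152-5p (0.948). For the mir-1983-p5 variant these were variants of miR-345-5p (0.987) and miR-33-3p (0.969) and miR-467c-3p (0.977). The miR-3968 variant had the lowest top r of the 9 entries, at 0.839 for miR-7b-3p, 0.828 for miR-872-5p and 0.749 for a miR-15a-3p variant. Among the entries of the 6 hairpins, the mir-6240 arms had an r of 0.954 with each other, the miR-1839 arms one of 0.183 and the miR-1983 arms one of -0.62. Without si-NC replicate 3 these were 0.967, 0.454 and -0.35.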

How the data were processed

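Small RNA libraries were prepared with a TruSeq kit, per the labels' protocols. The deposited values are the authors' normalized read numbers per entry, rounded to whole numbers and treated as a score, per the file headers. The build was mm9, per the submitters' processing notes. For the aligner, counting, normalization and miRNA release, the sources used here give nothing. Library totals ran from 2570449 to 3268351, which is not the read depth.

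Rows repeating an earlier row were merged when above 0 in at least 3 libraries or of the same base name (1080 to 1046 entries). The 916 entries with a mean of 1 or more were fitted by limma 3.58.1 (R 4.3.3, trended variance) on log2(value + 1), with group alone in the model, and the steps were tested on simulated data. Sequences and positions came from RefSeq and GENCODE M21 on GRCm38, matched by name, not from the authors' build. The members and lists were chosen with earlier results of these data known. Named are all entries of the 6 hairpins, the 3 entries most alike to each above a mean of 10, and up to 5 of each overlap list; miR-677-3p, miR-700-5p, miR-702-3p, miR-1982-3p and the single markers were named after their values were seen. Alternatives were pseudocounts of 0.1 and 5, other filters (none, or a mean of 10), 2 rescalings, a floor of 20, only entries with mouse names, repeated rows left unmerged, the replicate number as a block, and each library left out. Python 3.11.15 with numpy 2.4.6, pandas 2.3.3 and matplotlib 3.10.9 was used.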

Additional observations from a re-analysis of the deposited data

How the results depend on the processing

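With 1 library left out, the number of entries with an adjusted p under 0.05 by limma ran from 0 to 4, the 4 arising without si-NC replicate 3, and the number whose groups did not overlap from 155 to 290 against 107 (fewer values per group make that more frequent). The latter was 290 without si-NC replicate 3, 185 without si-NC replicate 1, 163 without si-NC replicate 2, and 164 and 161 without si-circCpsf6 replicates 2 and 3. Of the 10 entries, between 7 and 9 had a lower log2 mean under every alternative run, the 7 being of the 9 left by a mean of 10 or more. Their median log2 change ran from -1.33 (without si-NC replicate 3) to -0.63 (without si-NC replicate 1), and was -1.11 with a pseudocount of 0.1 and -0.69 with one of 5. The sum of the 10 in si-circCpsf6, as a percentage of si-NC, was 68.3% with equal library totals, 71.0% with median ratio scaling and, in leave-one-out values added after the data were seen, 63.5% to 81.4%. Only the mir-1983-p5 variant changed sign in any alternative, apart from the mir-6236-p3 variant at 0 when values under 20 were set to 20. The hairpins of the overlap lists numbered 63, and 53 with an overlap of at least 50%.

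With the replicate number as a block, 0 entries passed by limma, as without it; the median log2 change of the 10, -0.88, cannot move under a block in this balanced design. The r of the deviations from the group means was 0.047, 0.479 and 0.400 for libraries numbered 1, 2 and 3 in both groups, and -0.399 and -0.441 for numbers 2 and 3 crossed. The deviations of an entry sum to 0 within a group, so positive r values push others negative and these are not independent. The first si-NC library correlated best with the second si-circCpsf6 library (0.184), and the labels state no pairing, so the libraries were not treated as paired; whether numbers 2 and 3 mark a shared source was not tested. The values of the overlap lists and of r without si-NC replicate 3 were added after the data were seen. The unknown read depth limits what can be said of the lowest entries.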
